A study of Homo sapiens with 16 samples.

Results

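The effect of Thiamet-G (TMG) on undifferentiated human embryonic stem cells was read from 4 RNA-seq libraries of day 0 (D0), taken by the names of their count columns out of the 16 libraries of the series. There were 2 TMG libraries and 2 control libraries. All of them were made from H9, an established embryonic stem cell line, so every library has 1 genetic background. The cells were grown without feeder cells on Matrigel in mTeSR1 medium. Differences between the libraries in the preparation of RNA were not tested. TMG inhibits O-GlcNAcase and was given at 40 µM; the control cells received DMSO, the solvent, alone. How long the cells had been in TMG when they were collected on D0 is not given in the sources used here. The study describes the libraries of an arm as biological replicates. For 8 of the 16 libraries, among them DMSO replicate 2 and TMG replicate 1 of D0, the treatment tag in the sample labels names the other arm than the title does; the arms used here follow the title and the column name.

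O-GlcNAc is a single sugar that is put on serine and threonine residues of nuclear and cytoplasmic proteins by the transferase OGT and taken off by the hydrolase OGA. The donor sugar, UDP-GlcNAc, comes from glucose, glutamine, acetyl-CoA and UTP through the hexosamine pathway, whose entry enzyme is GFPT1 or its relative GFPT2. OGT modifies many transcription factors and chromatin proteins, and in embryonic stem cells the modified proteins include members of the pluripotency network. Inhibition of OGA raises the amount of the sugar on proteins without a change in any gene's sequence, so the transcriptome on D0 gives the state from which the neural differentiation of the study began.

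The 4 libraries held between 13372991 and 19215520 counts and between 30705 and 31870 genes with at least 1 count. Markers of the undifferentiated state were high in each library: the summed level of POU5F1, NANOG, SOX2, LIN28A, DPPA4 and DNMT3B was 3860 and 3580 CPM (counts scaled to a common library size) in the DMSO libraries and 4040 and 3920 CPM in the TMG libraries, and none of the 6 was under 1 CPM. Markers of other cell types were low but not equal among libraries. The 8 mesendoderm markers summed to 4.09 and 17.6 CPM in DMSO replicates 1 and 2 and to 6.96 and 6.35 CPM with TMG. The 6 neuroectoderm markers summed to 16.7, 45.7, 31.8 and 28.7 CPM in the same order. In both sums DMSO replicate 2 was the highest library, DMSO replicate 1 the lowest, and the TMG libraries lay between them. The markers of neurons, neural crest, mesenchyme, and trophoblast and amnion summed to 53.5, 26.3, 93.7 and 6.97 CPM or less in every library, and 2 of the 5 trophoblast and amnion markers had no count in any of the 4 libraries.

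**Figure D1:**
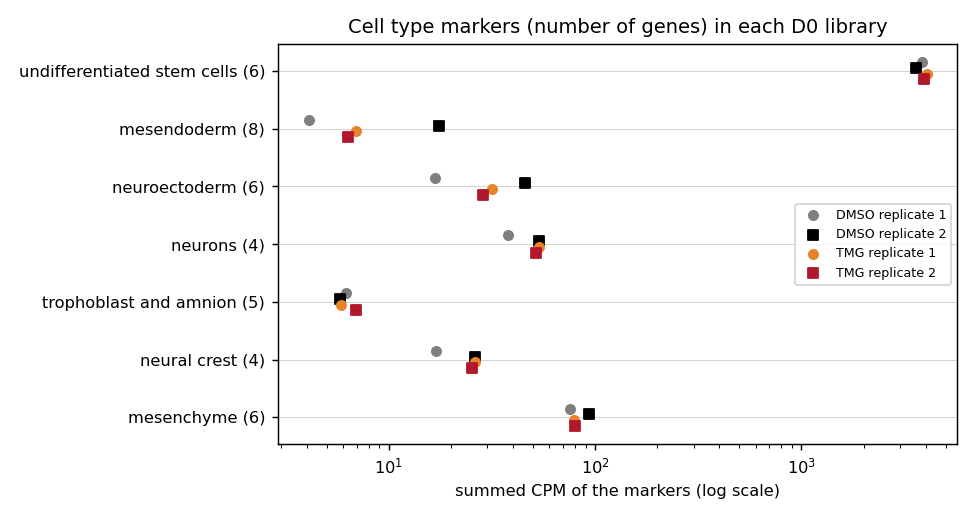
Summed CPM (log scale) of 7 sets of cell type markers in each of the 4 D0 libraries; grey and black points are the DMSO libraries, orange and red points the TMG libraries. The stem cell markers lie between 3580 and 4040 CPM in all libraries, and the mesendoderm and neuroectoderm sums are highest in DMSO replicate 2.

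By the size of log2 differences the control libraries lay farther from each other than from the TMG libraries. Over 13208 genes of at least 5 CPM, the median absolute log2 difference was 0.229 between the DMSO libraries and 0.0695 between the TMG libraries. DMSO replicate 1 lay at 0.156 and 0.149 from TMG replicates 1 and 2, and DMSO replicate 2 at 0.197 and 0.186. By this measure DMSO replicate 2 stood farthest from the rest. Between the DMSO libraries 572 genes differed by more than 2-fold, of which 449 were higher in replicate 2. Both TMG libraries lay between the DMSO libraries for 433 of these 572 genes (75.7%), which were picked for a wide gap, and for 35.1% of all 13208 genes. The counts of no pair of libraries were alike within counting noise. Over all genes tested that had counts in the pair, not only those of at least 5 CPM, chi-square per degree of freedom was taken. It was 28.9 for the TMG pair and 70.2 for the DMSO pair. Against TMG replicates 1 and 2 it was 27.7 and 13.1 for DMSO replicate 1, and 104.0 and 49.6 for DMSO replicate 2. By this measure DMSO replicate 1 was closer to each TMG library than the TMG libraries were to each other. The measure was taken on counts, so it grows with sequencing depth, and abundant genes weigh most in it. By the median log2 difference, in which each gene of at least 5 CPM counts alike, the TMG pair was the closest (0.0695). That TMG replicates 1 and 2 are separate cultures rests on the study's description alone. Most differences between the arms below therefore have to be read against a spread that comes mainly from the DMSO pair; for the small structured RNAs the TMG pair was the wider one.

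No gene passed a false discovery rate (FDR) of 5% among the 20469 genes tested with edgeR's quasi-likelihood test on the 4 libraries (0 higher and 0 lower, 0% of the genes; lowest adjusted p = 0.829). At an unadjusted p under 0.05, 440 genes (2.15%) were higher and 592 genes (2.89%) lower in TMG, together 1032 genes (5.04%). Both TMG libraries lay above both DMSO libraries for 3859 genes (18.9%) and below both for 3895 genes (19%). Among the 8600 genes of at least 20 CPM, 291 (3.38%) were higher and 217 (2.52%) lower at that p, and 24.9% lay above and 16.2% below both controls. DESeq2 on the same 4 libraries called 2 genes higher and 4 lower at FDR 5%. These percentages are the background against which each family is set below, and since every gene described had an adjusted p of at least 0.829 in edgeR, each difference is given from here on as a log2 fold change with its standard error (SE, log2 scale, 2 replicates an arm), and an unadjusted p under 0.05 marks a share of genes, not a call. The differences were small: the median absolute log2 fold change was 0.167 over all genes, and of the genes at an unadjusted p under 0.05, 56 were at least 2-fold higher and 148 at least 2-fold lower. Leaving out DMSO replicate 1 or DMSO replicate 2 gave 2811 and 1963 genes higher and 3220 and 1701 lower at FDR 5%, since the only replicates left were then the closely matched TMG libraries. Without TMG replicate 1 or TMG replicate 2 no gene passed FDR 5%, with 90 and 240 genes at an unadjusted p under 0.05.

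**Figure D2:**
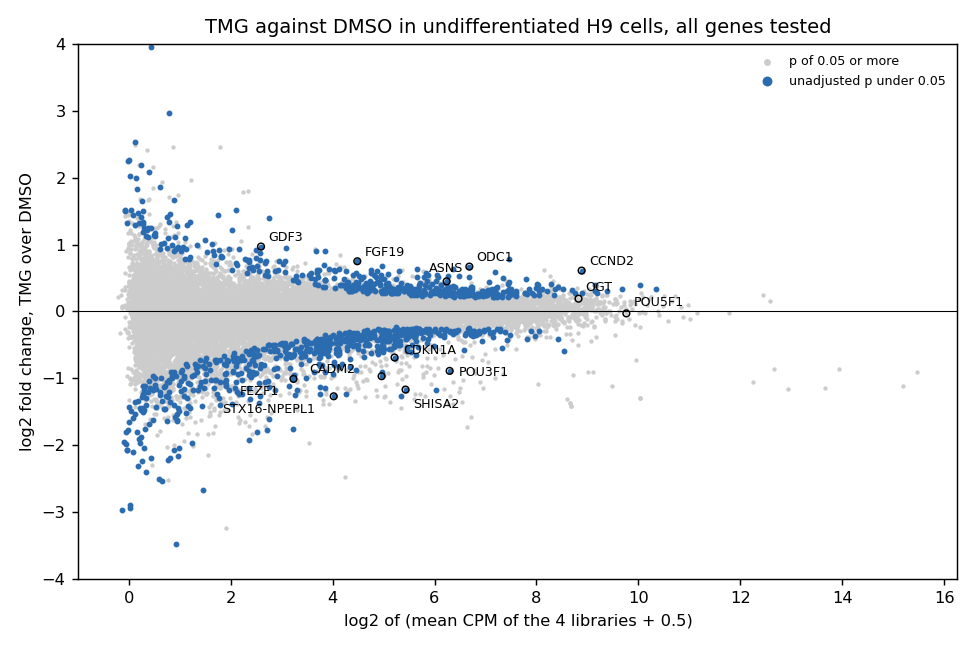
Log2 fold change of TMG over DMSO against mean level (log2 of CPM + 0.5) for the genes tested on D0; blue points have an unadjusted p under 0.05, circled genes are named in the text, and 5 genes beyond a log2 fold change of 4 are not drawn. Most well-expressed genes lie close to 0, and SHISA2, CADM2 and POU3F1 lie below most genes of like level.

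SHISA2, CADM2 and POU3F1 were the 3 genes called by DESeq2 that had counts in every library, and each was lower in TMG. SHISA2 (chr13:26618735-26626154 in GRCh37) encodes an endoplasmic reticulum protein that holds back the maturation of FGF and WNT receptors. It was at 57.3 and 60.9 CPM in DMSO and at 25 and 27.5 CPM in TMG, so the TMG libraries were far below either control (log2 fold change -1.17, SE 0.10, adjusted p = 0.829 in edgeR; adjusted p = 4.14e-05 in DESeq2). CADM2 (chr3:85008140-86123579), a neuronal cell adhesion molecule, was at 39.7 and 41.7 CPM in DMSO and 19.5 and 21.8 CPM in TMG (log2 fold change -0.97, SE 0.11; adjusted p = 0.0194 in DESeq2). POU3F1 (chr1:38509501-38512465), the POU-domain factor OCT6 of the primed epiblast and early neural plate, was at 92 and 111 CPM in DMSO and 55.2 and 54.2 CPM in TMG (log2 fold change -0.89, SE 0.12; adjusted p = 0.0108 in DESeq2). For all 3 genes the arms did not overlap, and leaving out any of the 4 libraries kept the direction. DESeq2 on all 16 libraries called none of the 3, and edgeR with no filter on low counts called all 3 (adjusted p = 0.000698 for SHISA2, 0.0162 for CADM2 and 0.0128 for POU3F1). The remaining 3 genes called by DESeq2 were gene models with no count in one arm. ENSG00000183086 had 0 and 0 counts in DMSO and 121 and 79 in TMG, RP11-1198D22.2 had 0 and 0 against 35 and 70, and ENSG00000268861 had 46 and 59 against 0 and 0. RSEM, the program that made the counts, divides reads between overlapping gene models, so a count of 0 in such a model is uncertain and no fold on D0 is given for it.

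Of the 12 genes of O-GlcNAc cycling and the hexosamine pathway, 7 (58.3%) lay above both controls in both TMG libraries and 2 (16.7%) below. Over all genes these shares were 18.9% and 19%, and over genes of at least 20 CPM 24.9% and 16.2%. The median log2 fold change was 0.18 against -0.0203 over all genes tested (0.08 without DMSO replicate 2). At an unadjusted p under 0.05, 0 were higher and 1 (8.33%) was lower, against 2.15% and 2.89% of all genes. OGA, the target of TMG, was at 206 and 335 CPM in DMSO and 360 and 339 CPM in TMG; the TMG libraries were above both controls, but by little over DMSO replicate 2 (log2 fold change 0.37, SE 0.25, and 0.07 without DMSO replicate 1). OGT was at 411 and 435 CPM in DMSO and 484 and 482 CPM in TMG (log2 fold change 0.19, SE 0.10). GFPT1, which catalyses the entry step of the hexosamine pathway, was at 133 and 124 CPM in DMSO and 148 and 146 CPM in TMG (0.19, SE 0.09). Its relative GFPT2 went the other way, with 122 and 139 CPM in DMSO and 103 and 105 CPM in TMG (-0.33, SE 0.10). AMDHD2, which takes GlcNAc-6-phosphate out of the pathway, was also lower in both TMG libraries (39.5 and 44.8 against 33.1 and 36.9 CPM). The later enzymes PGM3 and UAP1 had log2 fold changes of 0.21 and 0.18, that of PGM3 being 0.38 without DMSO replicate 1 and 0.07 without DMSO replicate 2. Of the pathway, GFPT2 alone had an unadjusted p under 0.05. HCFC1, a large OGT partner that OGT also cleaves, was at 474 and 432 CPM in DMSO and 456 and 467 CPM in TMG, with overlapping arms.

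Of the 21 core pluripotency genes 5 lay above both controls and 4 below (23.8% and 19%, against 18.9% and 19% of all genes). At an unadjusted p under 0.05, 3 were higher in TMG, NANOG, GDF3 and LIN28B, and 0 lower. These shares were 14.3% and 0%, against 2.15% and 2.89% of all genes. The median was 0.04 (0.01 to 0.08 when single libraries were left out). POU5F1 was at 842 and 916 CPM in DMSO and 874 and 842 CPM in TMG, and SOX2 at 194 and 267 CPM against 218 and 200 CPM, with overlapping arms for both. NANOG, a homeodomain factor that protects the undifferentiated state, was at 96.8 and 88.2 CPM in DMSO and 122 and 115 CPM in TMG (log2 fold change 0.36, SE 0.10). GDF3, a TGF-beta family ligand of undifferentiated cells that lies near NANOG on chromosome 12, was also higher, at 3.85 and 3.66 CPM in DMSO and 7.39 and 7.3 CPM in TMG (0.97, SE 0.20). The let-7 inhibitors LIN28B (128 and 140 against 166 and 158 CPM) and LIN28A (1010 and 926 against 1170 and 1150 CPM) were both above the controls, LIN28A without an unadjusted p under 0.05. FOXD3 and TDGF1 were below them in both TMG libraries, FOXD3 at 25.3 and 63.1 against 20.5 and 20.3 CPM and TDGF1 at 327 and 323 against 284 and 282 CPM, neither with an unadjusted p under 0.05. FGF2, the factor that primed stem cells need in their medium, was lower (106 and 111 against 87.5 and 87.5 CPM, log2 fold change -0.32, SE 0.08).

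The list of stem cell long noncoding RNAs had the highest median of the 77 lists, 0.31 over 10 genes. Of these 5 (50%) lay above both controls and 1 (10%) below, against 18.9% and 19% of all genes. HHLA1, which the annotation used here classes as protein-coding, was at 4.1 and 4.02 CPM in DMSO and 6.83 and 7.04 CPM in TMG (0.77, SE 0.20). LINC01108 was at 2.15 and 2.22 CPM in DMSO and 3.87 and 3.81 CPM in TMG (0.81, SE 0.24). LINC-ROR was at 0.694 and 1.51 CPM against 1.86 and 2.03 CPM, above both controls but without an unadjusted p under 0.05. ESRG, the most abundant of them, was at 738 and 459 CPM in DMSO and 721 and 702 CPM in TMG, inside the range of the controls. The list's median was 0.50 without DMSO replicate 1 and 0.16 without DMSO replicate 2.

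Several genes of amino acid supply were higher in both TMG libraries. The kinase GCN2 senses uncharged tRNA and, through the factor ATF4, turns on a set of genes for serine and asparagine synthesis, amino acid import and tRNA charging. Of the 29 genes tested on the ATF4 and amino acid response list, 7 were higher and 0 lower at an unadjusted p under 0.05 (24.1% against 2.15% of all genes). PSAT1, in the serine pathway, was at 131 and 138 CPM in DMSO and 190 and 190 CPM in TMG (log2 fold change 0.50, SE 0.09). SLC7A5, the carrier of leucine and other large neutral amino acids, was at 185 and 183 CPM in DMSO and 250 and 269 CPM in TMG (0.49, SE 0.09). ASNS, asparagine synthetase, was at 62.9 and 63.7 CPM in DMSO and 89.5 and 83.8 CPM in TMG (0.45, SE 0.09). In each of these 3 genes the arms were separated by several times the spread within either arm. They had the lowest p of the list, and a low p with 2 replicates an arm favours such a gap, so the gap is no separate evidence. PHGDH (253 and 238 against 306 and 308 CPM), SHMT2 (131 and 127 against 160 and 170 CPM) and MTHFD2 (115 and 125 against 149 and 152 CPM), which make serine and pass its carbon to folate, had log2 fold changes of 0.33, 0.35 and 0.32. The tRNA exporter XPOT was at 198 and 200 CPM in DMSO and 245 and 234 CPM in TMG (0.27, SE 0.09).

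ATF4 itself and 4 further members of the same list, shown here after their values were seen, overlapped between the arms. ATF4 was at 188 and 350 CPM in DMSO and 216 and 217 CPM in TMG, DDIT3 (the stress factor CHOP) at 4.04 and 15.6 against 6.14 and 6.41 CPM, and CHAC1 at 9.72 and 18.2 against 12.4 and 13.6 CPM. For these 3 genes and for DDIT4 the TMG libraries lay between a high DMSO replicate 2 and a low DMSO replicate 1. TRIB3 was at 7.26 and 7.89 against 7.11 and 7.67 CPM. The median of the whole list was 0.07 (0.01 without DMSO replicate 1 and 0.25 without DMSO replicate 2). Of its 29 genes 10 (34.5%) lay above both controls and 1 (3.45%) below, against 18.9% and 19% of all genes. The gene below was the stress-induced sestrin SESN2 (37.4 and 41 against 32.1 and 35.9 CPM, -0.20, without an unadjusted p under 0.05).

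The cytosolic tRNA synthetases, which charge tRNAs with their amino acids, lay mostly above the controls: 15 of 20 lay above both controls and 0 below (75% and 0%, against 18.9% and 19% of all genes), the median was 0.18, and 4 were higher at an unadjusted p under 0.05. YARS1 was at 116 and 112 CPM in DMSO and 159 and 151 CPM in TMG (0.44, SE 0.09). NARS1 was at 127 and 132 against 167 and 168 CPM (0.36, SE 0.08), CARS1 at 55.7 and 63.7 against 78.1 and 78.8 CPM (0.40, SE 0.10) and GARS1 at 126 and 139 against 157 and 161 CPM (0.26, SE 0.09). Among the members without such a p, IARS1 and MARS1 had log2 fold changes of 0.25 and 0.19 and lay above both controls, while RARS1 and TARS1, at 0.04 and 0.02, overlapped them. Leaving out single libraries moved the median between 0.12 and 0.24.

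**Figure D3:**
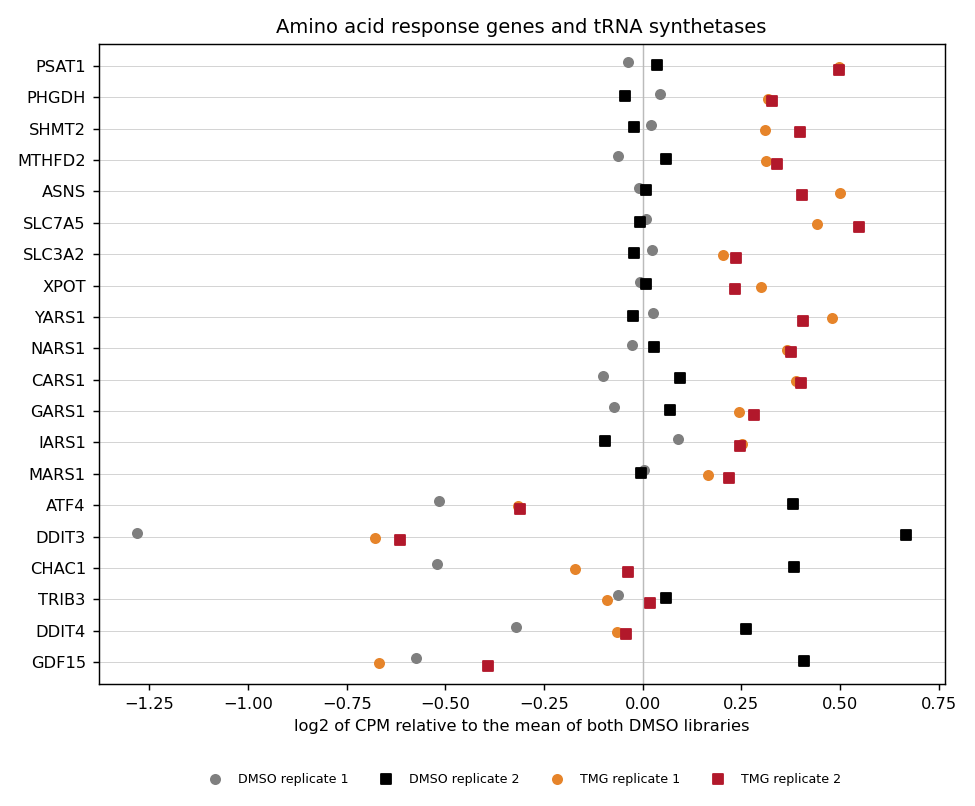
Log2 of CPM relative to the mean of both DMSO libraries for 20 amino acid response genes and tRNA synthetases, one point per library. For the upper 14 genes both TMG libraries lie to the right of both controls; for ATF4, DDIT3, CHAC1 and DDIT4 they lie between DMSO replicate 1 and DMSO replicate 2.

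ATF4 binds a composite DNA element, the amino acid response element (AARE), whose core was searched on both strands as TGATGNAA in RefSeq promoters of GRCh38.p14 that run from 250 bases before to 50 after each gene start. This motif was chosen after the values of the genes were seen. It occurs in 3.62% of the 35116 promoters. Of the 11 genes of both lists that were higher at an unadjusted p under 0.05, 9 had a promoter in the table and 4 of those held the core, in 4 of their 12 windows. The 4 promoters are shown 5′ to 3′ on the strand of the gene because they are the stretches in which the letters lie, with the match in capitals (in CARS1 and GARS1 it lies on the other strand and is read in reverse complement).
ASNS, chr7:97872359-97872658, minus strand: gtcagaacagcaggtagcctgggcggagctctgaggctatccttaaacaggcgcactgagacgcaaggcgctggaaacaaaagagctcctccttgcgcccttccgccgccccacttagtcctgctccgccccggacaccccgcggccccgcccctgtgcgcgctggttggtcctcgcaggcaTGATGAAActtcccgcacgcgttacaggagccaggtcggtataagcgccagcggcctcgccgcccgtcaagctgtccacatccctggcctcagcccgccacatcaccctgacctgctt
CARS1, chr11:3057374-3057673, minus strand: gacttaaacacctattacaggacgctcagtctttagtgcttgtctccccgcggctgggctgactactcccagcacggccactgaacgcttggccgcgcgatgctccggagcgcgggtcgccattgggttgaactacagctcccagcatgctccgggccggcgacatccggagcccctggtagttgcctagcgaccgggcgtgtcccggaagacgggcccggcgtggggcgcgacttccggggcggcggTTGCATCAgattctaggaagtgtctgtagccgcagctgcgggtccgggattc
GARS1, chr7:30594628-30594927, plus strand: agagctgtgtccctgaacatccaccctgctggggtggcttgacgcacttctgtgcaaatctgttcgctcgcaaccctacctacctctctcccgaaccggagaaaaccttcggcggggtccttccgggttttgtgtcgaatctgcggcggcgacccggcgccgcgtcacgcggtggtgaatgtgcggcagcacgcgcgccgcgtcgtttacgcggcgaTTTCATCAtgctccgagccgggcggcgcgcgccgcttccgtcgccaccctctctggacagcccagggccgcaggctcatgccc
NARS1, chr18:57621787-57622086, minus strand: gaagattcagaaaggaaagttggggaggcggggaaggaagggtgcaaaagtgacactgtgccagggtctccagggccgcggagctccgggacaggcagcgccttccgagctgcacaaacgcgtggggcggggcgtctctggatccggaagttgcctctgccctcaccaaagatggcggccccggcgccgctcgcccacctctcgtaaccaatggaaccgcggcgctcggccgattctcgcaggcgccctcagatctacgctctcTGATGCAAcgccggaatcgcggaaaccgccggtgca
The core begins 68 bases before the start of ASNS, 2 before that of CARS1 and 33 before that of GARS1, and 14 bases after that of NARS1. ASNS, CARS1 and GARS1 each have a second start in the table, whose window does not hold it. PSAT1, SLC7A5, PHGDH, MTHFD2 and XPOT have no match in their window. Members of both lists without an unadjusted p under 0.05 were not looked up, so 4 of 9 has no comparison group within the lists. A match of letters describes the window only.

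The chaperonin, proteasome and nucleoporin lists stood slightly above the controls, and the ribosomal proteins did not. The chaperonin is a barrel that folds actin, tubulin and many cell cycle proteins. Among 14 genes of the chaperonin and prefoldin list, 4 (28.6%) were higher and 0 lower at an unadjusted p under 0.05, against 2.15% and 2.89% of all genes. The median of the list was 0.18 (0.11 to 0.26 when single libraries were left out). CCT8 was at 215 and 197 CPM in DMSO and 261 and 256 CPM in TMG (0.33, SE 0.10), CCT6A at 208 and 203 against 251 and 241 CPM (0.26), TCP1 at 206 and 189 against 244 and 235 CPM (0.28) and CCT2 at 184 and 162 against 217 and 205 CPM (0.28). CCT3, CCT4, CCT5 and CCT7 also lay above both controls, with log2 fold changes from 0.17 to 0.26 that ran from 0.26 to 0.46 without DMSO replicate 1 and from 0.08 to 0.11 without DMSO replicate 2. The prefoldin subunit PFDN5 was below them (63 and 73 against 58 and 58.3 CPM). Of 35 proteasome genes 22 (62.9%) lay above both controls and 1 (2.86%) below, with a median of 0.15 (0.08 to 0.23 when single libraries were left out). Of 30 nucleoporins 17 (56.7%) lay above and 0 below, with a median of 0.12 (0.08 to 0.22). Over all genes 18.9% lay above and 19% below, and over genes of at least 20 CPM 24.9% and 16.2%. Only 2 proteasome genes (5.71%) and 1 nucleoporin (3.33%) had an unadjusted p under 0.05. For the cytosolic ribosomal proteins 8 of 84 (9.52%) lay above and 10 (11.9%) below both controls. Their median of -0.09 was -0.30 without DMSO replicate 1 and 0.10 without DMSO replicate 2. The mitochondrial ribosomal proteins had a median of -0.04 (-0.13 to 0.06 when single libraries were left out). The lysosome and autophagy genes had one of -0.10 (-0.14 to -0.03), with 1 of 22 (4.55%) above both controls and 6 (27.3%) below.

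Genes of DNA replication and mitosis also lay slightly above the controls. Over genes of at least 20 CPM 24.9% lay above and 16.2% below both controls, and over all genes 18.9% and 19%. Among 28 replication genes 15 (53.6%) lay above both controls and 1 (3.57%) below, and the median was 0.09. At an unadjusted p under 0.05, 4 of them (14.3%) were higher and 0 lower, against 2.15% and 2.89% of all genes. The replicative helicase subunit MCM6 was at 117 and 115 CPM in DMSO and 137 and 137 CPM in TMG (0.24, SE 0.08). FEN1, CDC6 and TYMS had log2 fold changes of 0.31, 0.25 and 0.22. Of 24 mitosis genes 12 (50%) lay above and 0 below (median 0.11), with AURKA at 58.2 and 63.3 against 72 and 74.4 CPM. CCND2, the D-type cyclin, was at 397 and 352 CPM in DMSO and 571 and 570 CPM in TMG (0.61, SE 0.11), while the cyclin-dependent kinase inhibitor CDKN1A was lower. MYC was lower too, at 42.2 and 62.8 against 34.2 and 35.7 CPM (-0.59, SE 0.21; -0.84 without DMSO replicate 1 and -0.26 without DMSO replicate 2), and MYCN overlapped (103 and 122 against 112 and 111 CPM).

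Target genes of p53, which stem cells hold ready for damage and differentiation, lay mostly below the controls or overlapped them. Of 24 targets 13 lay below both controls and 0 above (54.2% against 19% of all genes), 2 were lower and 0 higher at an unadjusted p under 0.05, and the median was -0.24, between -0.24 and -0.19 when single libraries were left out. CDKN1A was at 49.1 and 41.6 CPM in DMSO and 29.5 and 26.5 CPM in TMG (-0.69, SE 0.13). PHLDA3, an inhibitor of AKT, was at 35.2 and 40.4 against 27.2 and 24.1 CPM (-0.56, SE 0.13). BBC3 (33 and 51.5 against 30.1 and 27.2 CPM) and BTG2 (23.1 and 44.8 against 21.7 and 18.4 CPM) lay below both controls with a wide control pair. PMAIP1 and GADD45A overlapped, at 76.5 and 311 against 97.2 and 97.8 CPM and at 17.7 and 49.1 against 19 and 17.9 CPM. MDM2, the ligase that p53 induces against itself, was at 160 and 119 against 143 and 136 CPM, with overlapping arms.

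Some genes of ER stress and of metal binding were lower. On the ER stress and chaperone list 17.4% were lower at an unadjusted p under 0.05, against 2.89% of all genes. Among 23 genes of ER stress and chaperones, 4 were lower and 0 higher at an unadjusted p under 0.05: SDF2L1 (18.7 and 17.1 against 10.6 and 12 CPM, -0.66, SE 0.15), CRELD2 (28.8 and 27.8 against 22.4 and 19.3 CPM, -0.44), the kinase PERK gene EIF2AK3 (32 and 30.3 against 24.1 and 24.5 CPM, -0.36) and MANF (46.3 and 46.8 against 39.2 and 37 CPM, -0.29). The abundant chaperones HSPA5 and HSP90B1 lay inside the range of the controls, HSPA5 at 601 and 343 against 459 and 471 CPM. The list's median was -0.04, and it changed sign with the control left out (0.16 without DMSO replicate 1, -0.27 without DMSO replicate 2). Of the 7 genes tested on the list of metallothioneins and the zinc exporter SLC30A1, 4 (57.1%) lay below both controls and 0 above, against 19% and 18.9% of all genes. The median of this list was -0.51, and -0.12 without DMSO replicate 1. MT2A was at 32.2 and 27.8 against 17.7 and 24.4 CPM and MT1H at 8.58 and 4.81 against 2.42 and 2.97 CPM, whereas MT1X was at 26.8 and 45.8 against 43.4 and 49.2 CPM. These are near-identical neighbouring genes on chromosome 16, and how reads were shared among them is uncertain.

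The 3 chains of one laminin were higher and a pair of claudins lower. Laminin, the matrix protein on which stem cells sit, is a trimer of an alpha, a beta and a gamma chain. LAMB1 was at 151 and 148 CPM in DMSO and 202 and 205 CPM in TMG (0.44, SE 0.08), LAMA1 at 331 and 313 against 404 and 414 CPM (0.34, SE 0.10) and LAMC1 at 326 and 277 against 390 and 384 CPM (0.36, SE 0.12). Together these 3 chains form laminin-111. On the list of integrins and laminins they were the 3 of 26 (11.5%) at an unadjusted p under 0.05, against 2.15% of all genes higher. Of the list 12 (46.2%) lay above both controls and 1 (3.85%) below. These shares were 18.9% and 19% over all genes, and 24.9% and 16.2% over genes of at least 20 CPM. The median was 0.12 (0.26 without DMSO replicate 1). The basement membrane collagen COL4A1 was at 158 and 152 against 204 and 188 CPM (0.34, SE 0.09) and COL6A2 was lower (162 and 162 against 132 and 138 CPM, -0.27). Of 23 epithelial junction and keratin genes 4 (17.4%) were lower and 0 higher at an unadjusted p under 0.05, against 2.89% and 2.15% of all genes. The tight junction proteins CLDN7 (49.4 and 49.5 against 36.4 and 37.4 CPM, -0.42, SE 0.09) and CLDN3 (12.1 and 12.3 against 7.25 and 8.03 CPM, -0.68, SE 0.16) were the lowest in p, followed by the sorting adaptor AP1M2 and MARVELD3 (-0.28 and -0.32). CDH1, EPCAM and KRT8 overlapped the controls. On the whole list 3 genes (13%) lay above both controls and 6 (26.1%) below, and the median of -0.09 was 0.06 without DMSO replicate 1 and -0.20 without DMSO replicate 2.

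Signalling families are set here beside all genes, of which 2.15% were higher and 2.89% lower at an unadjusted p under 0.05. In the Notch list 10.7% were higher and 3.57% lower, in the FGF list 4.55% and 9.09%. The Nodal and TGF-beta list had 4.35% and 0%, and the BMP and Hedgehog lists had 0% and 0%. In the Notch list NOTCH3 (383 and 398 against 470 and 474 CPM, 0.27), the effector RBPJ (163 and 157 against 191 and 188 CPM, 0.24) and the ligand JAG1 (113 and 119 against 134 and 138 CPM, 0.24) were higher and the fringe enzyme RFNG (37.1 and 40.2 against 31.1 and 28.8 CPM, -0.37) lower at an unadjusted p under 0.05, of 28 genes tested, and the target HES1 overlapped at 30.3 and 75.6 against 32.4 and 34.9 CPM. In the Nodal and TGF-beta list 8 of 23 genes lay above both controls and 2 below (34.8% and 8.7%, against 18.9% and 19% of all genes). NODAL itself was at 2.84 and 5.24 against 7.11 and 6.05 CPM (0.71, SE 0.35, without an unadjusted p under 0.05; 0.33 without DMSO replicate 1 and 1.21 without DMSO replicate 2), and its inhibitor and target LEFTY1 overlapped at 7.95 and 35.4 against 16.6 and 15.2 CPM. Of the 22 genes tested in the list of the FGF pathway and ERK feedback 1 was higher and 2 were lower at an unadjusted p under 0.05, 3 lay above both controls and 3 below, and the median was 0.04 (-0.08 to 0.18 when single libraries were left out). FGF19 was at 15.5 and 17.2 CPM in DMSO and 28.7 and 26.2 CPM in TMG (0.75, SE 0.13). The lower genes were FGF2 and PHLDA1, the latter at 58.5 and 121 CPM in DMSO and 41.7 and 37.5 CPM in TMG (-1.18, SE 0.36; -1.61 without DMSO replicate 1 and -0.56 without DMSO replicate 2). DUSP6, the feedback phosphatase of ERK, was at 290 and 311 against 312 and 310 CPM.

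Genes of neural and mesendodermal fate overlapped between the arms in most members. So did genes in general, of which 37.9% lay above or below both controls. Of 19 neuroectoderm genes 4 (21.1%) lay below both controls and 0 above, against 19% and 18.9% of all genes. At an unadjusted p under 0.05, 2 (10.5%) were lower, against 2.89% of all genes. They were POU3F1 and FEZF1, a forebrain repressor, the latter at 13.3 and 10.5 CPM in DMSO and 6.14 and 5.68 CPM in TMG (-1.01, SE 0.20). PAX6 was at 4.04 and 15 against 10.4 and 9.18 CPM and SOX3 at 15.1 and 56 against 20.2 and 20.8 CPM, between the controls. Among 9 mesendoderm genes KDR (168 and 129 against 197 and 198 CPM) was higher and TBX6 (3.35 and 4.66 against 2.21 and 2.4 CPM) lower at an unadjusted p under 0.05, while TBXT and MIXL1 lay between the controls. APLNR had 4 and 5 counts in DMSO and 20 and 24 in TMG and passed the filter on low counts only through the TMG libraries, and 8 further members of the list did not pass it. In the whole neuroectoderm list the median per library was -0.63 in DMSO replicate 1 and 0.63 in DMSO replicate 2, relative to the mean of the pair, and 0.07 and 0.08 in the TMG libraries. None of the 39 HOX genes passed the filter on low counts.

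For several further families the result depended on which control library was used. Immediate early genes, which answer to handling within minutes, had the lowest median of the lists of protein-coding genes, -0.76 over 28 genes. Only 4 of them (14.3%) lay below both controls, against 19% of all genes. FOS was at 19.4 and 117 CPM in DMSO and 25.6 and 28.9 CPM in TMG, and EGR1 at 15.4 and 83.5 against 19 and 19.7 CPM. The TMG libraries were thus slightly above DMSO replicate 1 and far below DMSO replicate 2, and the median was -1.30 without DMSO replicate 1 and 0.29 without DMSO replicate 2. FOSL1 lay below both controls (16.9 and 14.3 against 8.63 and 7.98 CPM, -0.91, SE 0.17), and so did BTG2, which is also on this list (23.1 and 44.8 against 21.7 and 18.4 CPM). Genes of cholesterol synthesis had the opposite order of the controls, and the median of 24 genes, 0.17, was 0.55 without DMSO replicate 1 and -0.10 without DMSO replicate 2. ACAT2, at the head of the pathway, lay above both controls at 96.1 and 72.5 against 121 and 120 CPM (0.52, SE 0.15). Glycolysis genes had a median of 0.13 (0.32 without DMSO replicate 1 and -0.03 without DMSO replicate 2), with PDK1 at 138 and 94.4 against 180 and 169 CPM and LDHA at 108 and 70.5 against 120 and 118 CPM, the latter without an unadjusted p under 0.05.

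**Figure D4:**
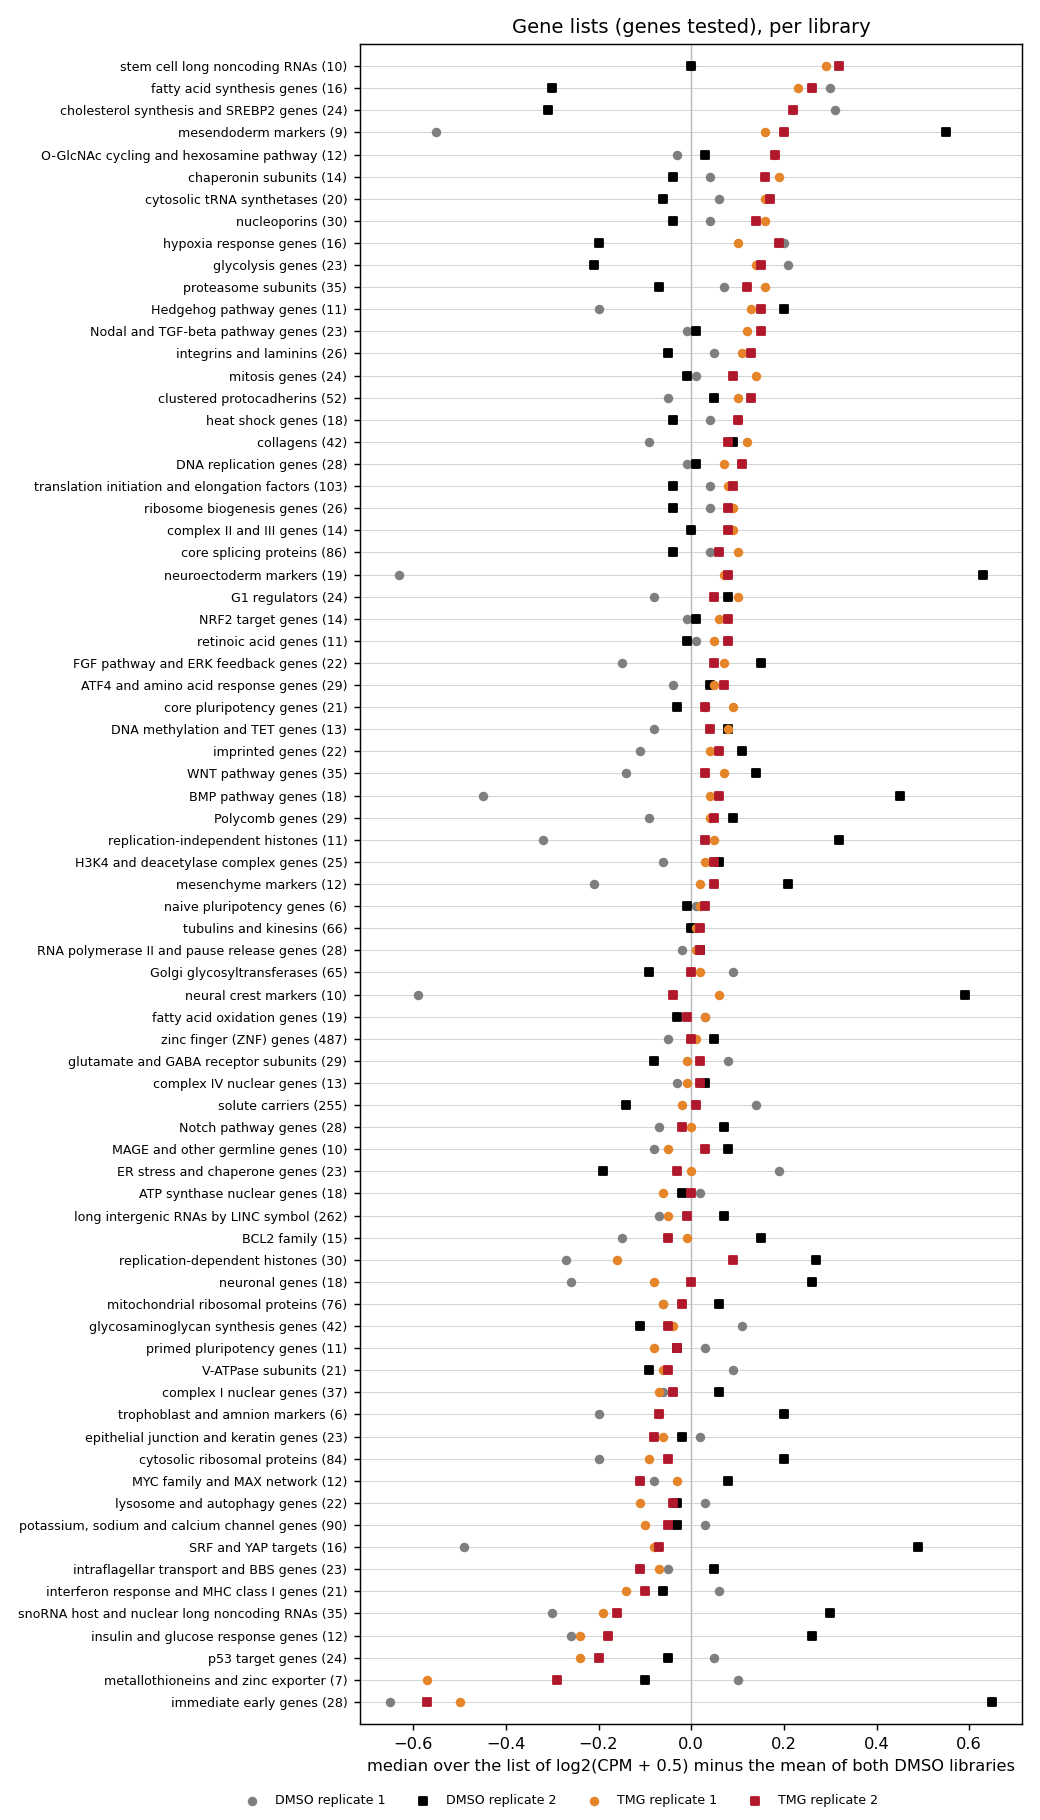
Median over each gene list, per library, of log2(CPM + 0.5) relative to the mean of both DMSO libraries, for 75 lists with at least 5 genes tested; the lists of small nucleolar and spliceosomal RNAs are left out because of their range. The TMG libraries lie close to each other on most lines, and the DMSO libraries lie far apart for immediate early, neuroectoderm, neural crest, mesendoderm and cholesterol genes.

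Counted over the 77 lists with 5 or more genes tested, the medians of both TMG libraries lay above those of both DMSO libraries for 21 lists and below for 8. Lists share genes and libraries, so these counts are a description. Of these 77 lists 17 had no member at an unadjusted p under 0.05.

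The genes with the largest differences did not belong to 1 family. By the rule for named genes (a symbol, unadjusted p under 0.01, arms that do not overlap, at least 5 CPM), 30 genes were higher and 44 lower. The 10 largest differences upwards were GDF3, PTPRB, FGF19, AKAP7, ODC1, CLMP, PPP1R3B, TLL2, CCND2 and RHOBTB3, with log2 fold changes from 0.60 to 0.97. ODC1, the first enzyme of polyamine synthesis and a target of MYC, was at 69.9 and 88.2 CPM in DMSO and 125 and 126 CPM in TMG (0.67, SE 0.14), and its log2 fold change was 0.52 without DMSO replicate 1 and 0.85 without DMSO replicate 2. The endothelial phosphatase PTPRB was at 6.31 and 4.66 against 10.9 and 10.3 CPM. PPP1R3B, a glycogen-targeting subunit of protein phosphatase 1, was at 19.1 and 22.8 against 33.1 and 31.2 CPM (0.62, SE 0.13). The 10 largest downwards were STX16-NPEPL1, TCTA, SHISA2, NPTX1, TNFRSF11A, MCMDC2, FEZF1, CADM2, HERPUD2-AS1 and FOSL1, from -1.27 to -0.91. STX16-NPEPL1 is a readthrough transcript of 2 neighbouring genes and its counts (380 and 287 against 112 and 205) may be shared with them. NPTX1, a secreted synaptic pentraxin, was at 8.02 and 10.8 CPM in DMSO and 4.49 and 3.91 CPM in TMG (-1.17, SE 0.24). TNFRSF11A, the receptor RANK, was at 21.2 and 14.4 against 7.46 and 8.76 CPM (-1.13, SE 0.24).

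**Figure D5:**
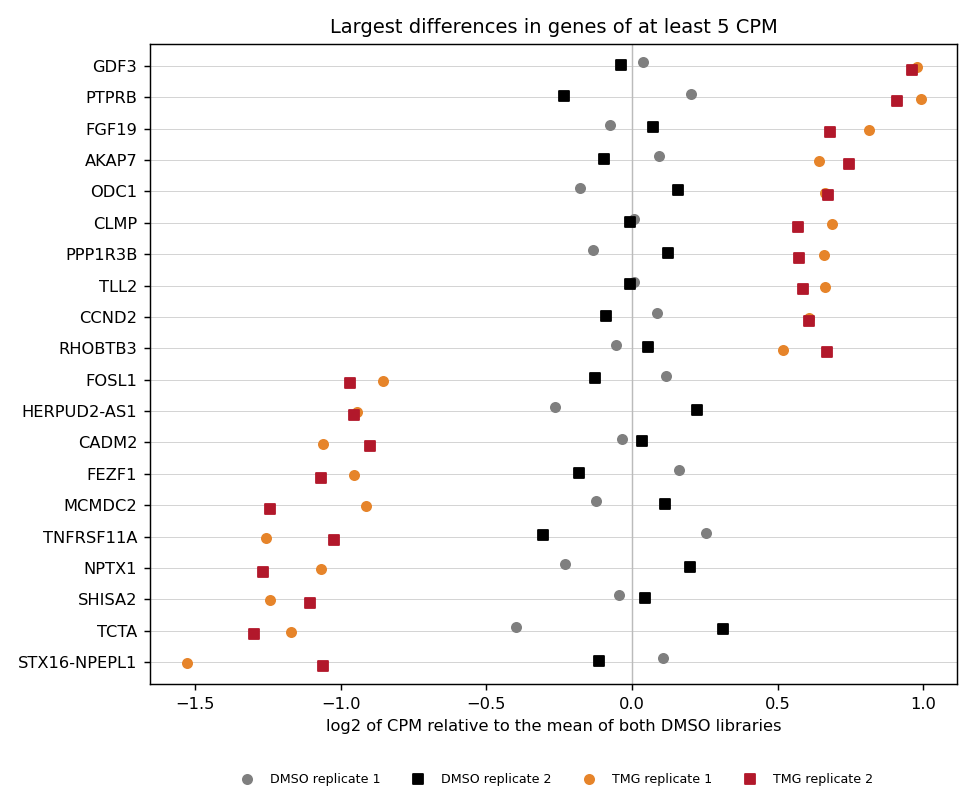
Log2 of CPM relative to the mean of both DMSO libraries for the 10 largest differences upwards and the 10 downwards, one point per library. The TMG libraries lie apart from both controls in each gene, as the rule requires, and close to each other.

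Small structured RNAs were lowest in TMG replicate 1, and their share differed between the replicates of both arms, which overlapped. They took 5.93% and 12.8% of the counts in DMSO and 2.71% and 7.16% in TMG. For 78 small nucleolar RNAs the median relative to the control mean was -0.28 and 0.28 in DMSO, -1.76 in TMG replicate 1 and -0.07 in TMG replicate 2, so that only TMG replicate 1 lay below both controls. For 38 spliceosomal and other small RNAs it was -0.22 and 0.22 in DMSO and -2.06 and -0.44 in TMG, with both TMG libraries below. Of the small nucleolar RNAs 14 (17.9%) lay below both controls and 0 above, and of the spliceosomal and other small RNAs 14 (36.8%) and 0, against 19% below and 18.9% above over all genes. At an unadjusted p under 0.05, 3 of the 78 and 1 of the 38 were lower (3.85% and 2.63%, against 2.89% of all genes). Without TMG replicate 1 the medians of the fold changes were -0.13 and -0.53, and without TMG replicate 2 they were -2.67 and -2.61.

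Differences also moved with the base composition of the transcripts. Over protein-coding genes of at least 5 CPM ordered by the GC content of their longest transcript, the fifth with the lowest GC (up to 40.3%) had 3.17% of genes higher and 1.02% lower at an unadjusted p under 0.05, and the fifth with the highest GC (from 58.1%) 0.973% higher and 6.6% lower. The median log2 fold change was 0.05 in the first and -0.12 in the last. Median GC was 52.3% for the amino acid response list, 48.9% for the tRNA synthetases, 45.2% for the chaperonin list, 50.7% for the p53 targets and 55.8% for the epithelial junction list, against 47.9% over all these genes. With log2 fold changes centred on genes of like GC content, the medians of the 5 lists were 0.07, 0.17, 0.16, -0.19 and -0.11. Centring lowered the median of the O-GlcNAc pathway from 0.18 to 0.13, of the proteasome from 0.15 to 0.10, of the nucleoporins from 0.12 to 0.08 and of the mitosis genes from 0.11 to 0.07.

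The effect of TMG on D0 was set against that on D12 of neural differentiation in 1 edgeR model of 8 libraries with an interaction term. No gene of 22970 differed at FDR 5% (0%; lowest adjusted p = 0.899), and 847 (3.69%) had an unadjusted p under 0.05; DESeq2 called 8. ASNS and PSAT1, higher on D0, overlapped between the arms on D12: ASNS was at 62.1 and 24.4 CPM in the D12 controls and 63.3 and 19.3 CPM with TMG, and PSAT1 at 141 and 91 against 139 and 76.1 CPM (difference between the stages -0.55 and -0.64 on the log2 scale, adjusted p = 1.0 for both). For CDKN1A both TMG libraries lay below both controls on D12 as well, at 161 and 124 against 93.9 and 41 CPM. The same held for POU3F1, at 21 and 20.6 against 9.81 and 6.86 CPM, and for CADM2, at 20 and 31.7 against 17.8 and 15.7 CPM. SHISA2 overlapped on D12, at 7.93 and 11 against 10.6 and 7.46 CPM (difference 1.08, adjusted p = 1.0). CLDN7 had the opposite order on D12. It was at 8.4 and 10.1 CPM in the D12 controls and 29.4 and 15.4 CPM with TMG (difference 1.67, adjusted p = 1.0).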

How the data were processed

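Total RNA of H9 cells was depleted of ribosomal RNA and sequenced; per the labels and the study's methods the authors aligned reads to hg19 with Bowtie2 and deposited expected counts per gene from RSEM 1.2.12 with an Ensembl annotation. The deposited expected counts were whole numbers and were used as they stand. Gene symbols and GRCh37 positions came from GENCODE annotation lifted to that build: 43484 of 57736 gene IDs had a symbol, and 14252 did not. Whether counting used the strand is not given in the sources used here, so overlapping genes cannot be told apart, and RSEM divides reads among near-identical genes.

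All 16 columns were mapped to samples by name and none was left unused. The main test was edgeR 4.0.16 (R 4.3.3; filterByExpr with a minimum count of 10, TMM scaling, quasi-likelihood test, Benjamini-Hochberg adjustment over all genes tested) on the 4 D0 libraries, with 2 residual degrees of freedom. CPM are counts per 1e6 of the TMM-scaled library; SE are on the log2 scale. DESeq2 1.42.0, all 16 libraries, other scalings and filters, a replicate block and the omission of each library were run as alternatives, and the test was tried on simulated data. The p-values rest on a spread estimated from both arms together and moderated across genes (prior degrees of freedom 2.83). That the 2 libraries of an arm are separate cultures rests on the study's description. Genes named were those called by DESeq2, the 10 largest differences in each direction (unadjusted p under 0.01, arms apart, mean of at least 5 CPM), up to 4 members of each list with the lowest p, a set of fixed genes, and further members shown beside them, chosen after their values were seen. The members and gene lists were chosen with earlier results of these data known. A list is described by its counts and its median, beside all genes. CD24, LHX1, NEFL, TXNIP, ACACA, EPOP, PCGF2, UHRF1 and the mitochondrially encoded genes were not analysed here, and a gene among the fixed ones is not reported here. Promoters came from RefSeq (GRCh38.p14). Figures were drawn with matplotlib 3.10.9.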

Additional observations from a re-analysis of the deposited data

Results flagged for a closer look

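The effect of TMG differed between D0 and D12 for 8 genes by DESeq2's interaction test at FDR 5%, given as log2 effect on D12 minus log2 effect on D0. In edgeR, the main test, the same 8 genes had adjusted p-values from 0.899 to 1.0. ESRP1, an epithelial splicing regulator, differed by 2.03 (adjusted p = 0.00415 in DESeq2): it was at 124 and 102 CPM in DMSO and 110 and 109 CPM in TMG on D0, and at 4.85 and 6.57 against 27.9 and 16.8 CPM on D12. CRYBG1 differed by 2.46 (adjusted p = 0.00202 in DESeq2), ITPR2, a calcium channel of the endoplasmic reticulum, by 1.91 (0.0012) and AP1M2, the sorting adaptor of epithelia, by 2.01 (0.00202). MYO7A, an unconventional myosin, differed by 2.20 (0.00171), from 6.17 and 5.98 against 3.95 and 4 CPM on D0 to 11.8 and 16.7 against 45.6 and 39.3 CPM on D12. ADAMTS17 differed by 2.60 (0.0151) and MIR205HG by 2.51 (0.0151). The 7 genes above had a positive difference. The unnamed gene model ENSG00000183086 differed by -8.07 (0.00415), with 0 and 0 counts against 121 and 79 on D0 and 44 and 40 against 92 and 56 on D12, so its fitted value rests on how the model treats the 0 counts of the D0 controls and is not an estimate of the size of a difference.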

How the results depend on the processing

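The count of genes at FDR 5% was 0 higher and 0 lower with edgeR under RLE normalization, a stricter filter, all 16 libraries and a replicate block. It was 2 higher and 4 lower with DESeq2 on 4 libraries, 3 and 2 with DESeq2 on 16 libraries (CSTA, ALDH3B2, DSG3 and CRYBB2, with 0 to 2 counts in each D0 library and outside the main test, and ENSG00000183086), and 3 and 5 with no filter on low counts. Leaving out single libraries moved it between 0 and 2811 higher and between 0 and 3220 lower, with the high counts where a DMSO library was left out and the spread came from the TMG pair (biological coefficient of variation 0.0919 and 0.0918, against 0.189 with all 4 libraries). At an unadjusted p under 0.05, 440 genes were higher and 592 lower in the main test. The numbers were 89 and 217 with edgeR on 16 libraries, 158 and 285 with DESeq2 on 4, 107 and 221 with DESeq2 on 16, and 700 and 850 with no filter, and ran from 28 to 3854 and from 62 to 4279 when single libraries were left out. On D0 the replicate numbers are shared by the arms only as numbers (correlation of the replicate differences 0.0827 across genes). With the replicate block 232 genes were higher and 452 lower on D0 at an unadjusted p under 0.05. Of the 1032 genes, 1032 kept their direction under DESeq2 on 4 libraries and 332 kept an unadjusted p under 0.05. For the difference between D12 and D0, DESeq2 called 8 genes at FDR 5% against 0. At an unadjusted p under 0.05 there were 1376 genes with the replicate block and 260 with edgeR on 16 libraries, against 847. The block lowered the biological coefficient of variation of this fit from 0.219 to 0.167. On D12, replicate 2 was the lower in both arms for ASNS and PSAT1, and for ESRP1 the arms ran opposite ways. Pairing by replicate number on D12 was not tested.

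Omission of a library turned the sign of the log2 fold change of 31 named genes, all with overlapping arms, over these ranges: ATF4 -0.69 to 0.21, CDH1 -0.40 to 0.34, CHAC1 -0.48 to 0.43, DDIT3 -1.31 to 0.64, DDIT4 -0.31 to 0.27, DNMT3B -0.06 to 0.33, DPPA4 -0.08 to 0.13, EGR1 -2.10 to 0.34, EPCAM -0.31 to 0.23, ESRG -0.04 to 0.64, FOS -2.08 to 0.50, GADD45A -1.41 to 0.06, HCFC1 -0.03 to 0.10, HES1 -1.16 to 0.16, HSP90B1 -0.14 to 0.49, HSPA5 -0.36 to 0.45, KRT8 -0.17 to 0.17, LEFTY1 -1.16 to 1.00, MDM2 -0.19 to 0.23, MIXL1 -1.25 to 0.74, MYCN -0.12 to 0.12, PAX6 -0.62 to 1.27, PMAIP1 -1.67 to 0.36, POU5F1 -0.09 to 0.03, RARS1 -0.04 to 0.13, SLC30A1 -0.12 to 0.06, SOX2 -0.35 to 0.11, SOX3 -1.44 to 0.44, TARS1 -0.10 to 0.18, TBXT -1.09 to 3.53, TRIB3 -0.08 to 0.04. The log2 fold change of HSPA5 was 0.01 with DESeq2 on 16 libraries and 0.03 with the replicate block, which also gave 0.26 for TBXT and 0.01 for MDM2. MDM2 was at 0.00 with DESeq2 on 4 libraries. With edgeR on 16 libraries, DESeq2 on 16 and no filter, MDM2 was at 0.02 in each, KRT8 at 0.00, 0.01 and 0.01, and MYCN at 0.01, 0.02 and 0.01. With GC centring, an alternative added after the data were seen, the sign turned for DPPA4 (-0.02), KRT8 (0.02), MYCN (0.04), PAX6 (-0.01), RARS1 (-0.03), TARS1 (-0.01) and TRIB3 (0.07), and 57 of 67 list medians moved by less than the spread between replicates. Of 77 list medians, 37 and 43 moved by more than that spread on omission of the first and the second DMSO library, and 12 and 10 on omission of either TMG library. Omission of a DMSO library moved the log2 fold changes of ACAT2 between 0.34 and 0.74, KDR between 0.24 and 0.62, MT1H between -1.65 and -0.81, PDK1 between 0.35 and 0.89, TBX6 between -1.0 and -0.52, AMDHD2 between -0.35 and -0.17, BBC3 between -0.84 and -0.20, BTG2 between -1.16 and -0.20, FOXD3 between -1.62 and -0.30, LDHA between 0.15 and 0.76, LINC-ROR between 0.38 and 1.49 and PFDN5 between -0.32 and -0.11, and omission of a TMG library those of MT2A between -0.75 and -0.30 and SESN2 between -0.28 and -0.12.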

Other observations

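At an unadjusted p under 0.05, 7 genes were higher and 43 lower of 937 on chromosome 19 (median log2 fold change -0.09). Chromosome 16 had 8 and 40 of 626 (-0.06) and chromosome 18 had 15 and 3 of 193 (0.07). Chromosome 1, with the most genes, had 35 and 20 of 1283 (0.00). The chromosome counts cover fewer genes than the 20469 tested, so the shares over all genes are not their background. No share over the matching set of genes is given, and a difference between chromosomes was not tested. The counts were not adjusted for GC content, with which the shares of genes higher and lower also moved, as given above. Of 2859 long noncoding RNAs 31 were higher and 105 lower, with a median of -0.11, beside 440 and 592 of the 20469 genes tested. These counts were made after the data were seen. The 52 clustered protocadherin genes, adhesion proteins of neurons, had 18 members (34.6%) above both controls and 4 (7.69%) below, against 18.9% and 19% of all genes. Their median was 0.12 (0.04 without DMSO replicate 1).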
